A study of Drosophila melanogaster with 10 samples.

Results

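Late wing imaginal discs, taken 35 h and 48 h into the L3 larval instar, the last one, counted from its opening molt, were compared with early discs, taken at 6 h and 15 h. The late pool held 4 libraries (35 h A, 35 h B, 48 h A and 48 h B) and the early pool 4 libraries (6 h A, 6 h B, 15 h A and 15 h B), 8 of the 10 libraries of the series. The remaining 2 libraries, of discs at 25 h, belong to neither pool and entered no comparison of the pools. All discs came from Drosophila melanogaster of the genotype yw, and the 48 h larvae were at the wandering stage. No treatment is labelled. The labels name no dissection of parts of discs, so a library may mix all cell types attached to a disc. The molecule is labelled polyA RNA, while the protocol describes stranded libraries of total RNA after removal of ribosomal RNA. Whether libraries A and B of a time came from separate cultures is not labelled, so p-values measure only the spread between these libraries. Of the 13041 genes in the table, 10453 reached a value of 10 or more in 2 or more libraries and were tested.

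The wing disc is a sac of epithelium that grows throughout larval life and becomes the adult wing, hinge and notum at metamorphosis. Secreted signals of the Wnt, Dpp and Hedgehog families and the contact signal of Notch divide it into compartments, the wing pouch, veins and sensory bristles. The steroid hormone ecdysone, released in pulses during the last instar, times the change from growth to differentiation, while juvenile hormone is known to hold larval fates in place. Muscle precursors, tracheal branches and blood cells lie on the disc, and gut, fat body and salivary gland lie near it in the larva.

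The deposited values are read counts divided by 1 scaling factor per library, called signal below, and 1 read was worth a signal of 0.596 to 1.40. The reads recovered from them numbered 16814685 to 38003104 per library, with 10865 to 12294 genes having at least 1 read. Of these reads 3.71% to 6.48% lay in mitochondrial genes and 4.79% to 13.0% in ribosomal RNA genes. The 2 libraries of 15 h stood apart from each other. The Spearman correlation of A with B across the genes tested was 0.976 for the 6 h libraries, 0.870 for those of 15 h, 0.979 for those of 25 h, 0.993 for those of 35 h and 0.994 for those of 48 h. On the first principal component of the 8 pooled libraries, which held 77.6% of the variance, the late libraries lay at 81.9, 81.7, 112 and 124. The early libraries 6 h A, 6 h B and 15 h A lay at -125, -118 and -144, while 15 h B lay at -12.8, between the rest of the early pool and the late pool. On the second component, with 8.74% of the variance, 15 h A lay at -81.5 and the other libraries at -11.0 to 39.9. The counts over all genes and those of some gene lists are therefore also given without 15 h A, 15 h B or both. Pooled differences of single genes include both libraries unless stated.

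**Figure D1:**
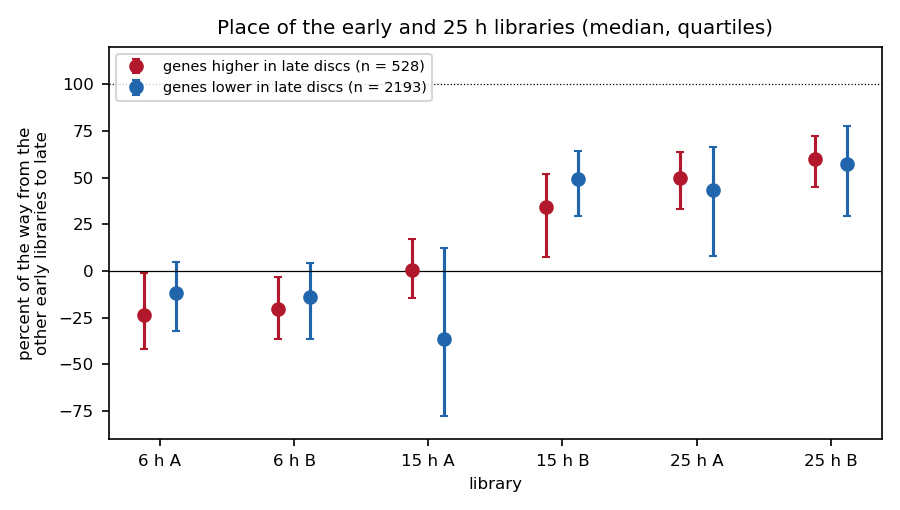
Place of each early and 25 h library (horizontal axis) on the way from the other early libraries (0) to the mean of the late libraries (100), in percent on the log2(signal + 1) scale; points are medians and bars quartiles over the 528 genes called higher and the 2193 called lower by at least 2-fold in late discs. For higher genes 15 h B lies at 34.3% of the way, below 25 h A and 25 h B at 50.1% and 59.8%. For lower genes it lies at 49.4%, between them at 43.3% and 57.3%. The library 15 h A lies at 0.379% for higher and -36.3% for lower genes. The genes were called with 15 h B in the early pool and without the 25 h libraries, whose way starts from all early libraries.

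Between late and early discs, 2038 genes were higher in late discs (19.5% of those tested) and 2822 were lower (27.0%), by limma on log2(signal + 1) with a Benjamini-Hochberg adjusted p under 0.05. Together these were 4860 genes, 46.5% of those tested. In bulk libraries such as these, fewer cells of a type and less RNA per cell cannot be told apart. The differences on the lower side were larger: 2193 genes (21%) were called and at least 2-fold lower, against 528 (5.05%) called and at least 2-fold higher. The split depended on the scaling of the libraries. Of the calls, 41.9% were higher with the deposited scaling, 68.0% after quantile normalization (3990 higher, 38.2%, and 1875 lower, 17.9%) and 61.6% after setting all libraries to a common median (3625 higher, 34.7%, and 2259 lower, 21.6%). The median difference over all genes was -0.07 on the log2 scale as deposited, and these scalings shifted it upwards by 0.38 and 0.32. Every gene called higher as deposited was also called higher under both (2038 of 2038), while 1860 and 2255 of the 2822 lower genes were called lower again. Without the 15 h B library the counts were 2700 higher and 3389 lower, including 1999 of the 2038 and 2788 of the 2822. Without 15 h A they were 1987 and 2970.

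**Figure D2:**
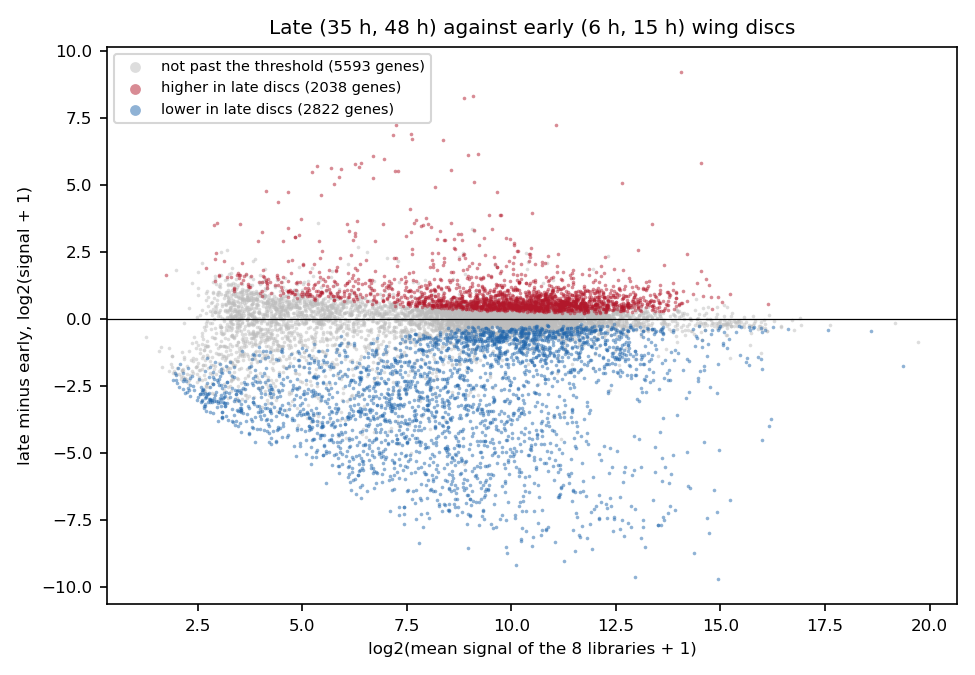
Each point is 1 of the 10453 genes tested; the horizontal axis is the mean signal of the 8 libraries on the log2(signal + 1) scale and the vertical axis the difference of late minus early discs on the same scale. Genes past the threshold are red where higher (2038) and blue where lower (2822), and the lower genes reach farther from 0 than the higher ones.

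All 4 late libraries lay above all 4 early ones for 2041 genes (19.5%) and below all of them for 2713 (26%). Of the steps between neighbouring times within the pooled comparison, that from 15 h to 35 h held most calls, with 752 genes higher at 35 h (7.19%) and 892 lower (8.53%). From 6 h to 15 h, 138 genes (1.32%) increased and 303 (2.9%) decreased. From 35 h to 48 h, 16 (0.153%) increased and 25 (0.239%) decreased. Each of these steps compares 2 libraries with 2, so its counts are not comparable in power with those of the pools. The steps also span unequal times, that from 15 h to 35 h being the longest and passing over 25 h. Those that use 15 h rest on libraries that stood apart. Among the 528 genes called and at least 2-fold higher, the means of 157 (29.7%) moved by less than 0.5 on the log2 scale within each pool. Their difference in means thus lay between 15 h and 35 h. The same held for 439 (20.02%) of the 2193 lower genes, while the means of 585 (26.7%) fell by at least 0.5 both from 6 h to 15 h and from 35 h to 48 h. As 15 h A and 15 h B stood apart, their mean can stay flat while each moved, so a flat mean does not show a steady early pool. The 25 h libraries, which the pools left out, had both values between the means of the pools for 429 of the 528 higher genes (81.2%) and 1464 of the 2193 lower ones (66.8%). Both 25 h values lay above all 8 pooled libraries for 10 of the higher and 40 of the lower genes.

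The higher genes with the clearest separation from early discs, by the size of the moderated statistic, were Tpst, edl, Delta, Hsp67Ba, norpA, B-H2, smal and Sxl. Below, values are signal in the order 35 h A, 35 h B, 48 h A and 48 h B for late discs and 6 h A, 6 h B, 15 h A and 15 h B for early discs, and each difference is late minus early in log2(signal + 1), followed by its limma standard error (SE). Tpst (chromosome X, 13563823 to 13593224, BDGP6 coordinates of the whole gene), which encodes a tyrosylprotein sulfotransferase of the Golgi, had 1301, 1311, 1097 and 1169 in late discs and 566, 532, 516 and 536 in early discs. Both pools were narrow and did not overlap, and the difference was 1.18 (SE 0.10, adjusted p = 0.001). The antagonist of Ets transcription factors edl (chromosome 2R, 18667527 to 18673536) had 393, 374, 489 and 436 in late discs and 91.6, 117, 112 and 118 in early discs. Its 25 h values, 215 and 298, fell between the pools, and the difference was 1.94 (SE 0.16, adjusted p = 0.001). Delta (chromosome 3R, 19302731 to 19326217), the Notch ligand, had 7179, 7594, 7642 and 7546 in late discs and 3474, 3576, 3423 and 4270.2 in early discs. The highest early library, 15 h B, stayed below every late one, with a difference of 1.03 (SE 0.09, adjusted p = 0.001). The homeodomain gene B-H2 (chromosome X, 17314581 to 17324175) had 235, 252, 236 and 275 in late discs and 41.1, 46.7, 52.7 and 67.7 in early discs, again without overlap and with a difference of 2.26 (SE 0.21, adjusted p = 0.001). Sxl (chromosome X, 7074550 to 7098053), the RNA-binding switch gene of sex determination, had 5685, 5352, 4573 and 6320.1 in late discs against 2475, 2435, 2440.2 and 2634 in early discs. Its lowest late library, 48 h A, lay above the highest early one, and the difference was 1.13 (SE 0.11, adjusted p = 0.001). For norpA (chromosome X, 4322626 to 4365408), a phospholipase C gene best known from phototransduction, the difference was 1.09 (SE 0.10, adjusted p = 0.001).

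Hsp67Ba and smal rose over a wider range. Hsp67Ba (chromosome 3L, 9377802 to 9379534), a gene of the small heat shock protein family, had 750.3, 699, 1210.0 and 1252 in late discs and 5.99, 6.67, 15.4 and 37.6 in early discs. Within each pool the later time was the higher one, the 25 h libraries had 230.2 and 300.0, and the difference was 6.12 (SE 0.55, adjusted p = 0.001), a 69.6-fold higher value. For smal (chromosome 2L, 6179133 to 6211114) the late libraries had 829, 779, 2425 and 2253 and the early ones 48.8, 33.4, 60.4 and 67.7. The step inside the late pool was clear, with 48 h above 35 h, and the difference was 4.73 (SE 0.44, adjusted p = 0.001).

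Among genes whose mean changed little within each pool, E(spl)mdelta-HLH, ltl and Mnn1 joined B-H2 and edl as those with the largest rise. E(spl)mdelta-HLH (chromosome 3R, 25997621 to 25998633), a repressor of the Notch-regulated Enhancer of split complex, had 447, 404, 424 and 524 in late discs and 94.2, 70.7, 82.2 and 159 in early discs. The difference was 2.20 (SE 0.26, adjusted p = 0.00148), and the early value closest to the late ones was that of 15 h B. The leucine-rich repeat gene ltl differed by 2.03 (SE 0.24, adjusted p = 0.0015), and Mnn1, the fly counterpart of menin, by 1.82 (SE 0.18, adjusted p = 0.00111). Neither overlapped between the pools.

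**Figure D3:**
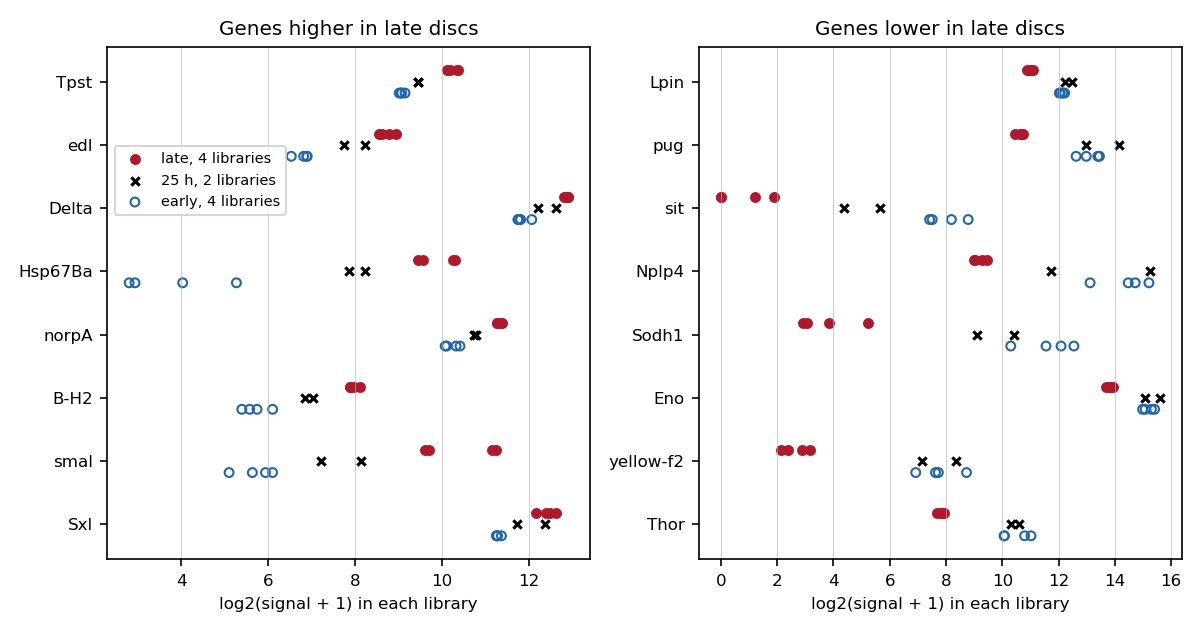
Signal of the 8 higher (left panel) and 8 lower (right panel) genes with the largest moderated statistics, on the log2(signal + 1) scale (horizontal axis); each filled red point is a late library, each open blue circle an early library and each cross a 25 h library. In every one of these genes the 4 late libraries lie on one side of all 4 early ones, as the naming rule required, and Hsp67Ba, sit, Sodh1 and yellow-f2 show the widest gaps.

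The lower genes with the clearest separation were Lpin, pug, sit, Nplp4, Sodh1, Eno, yellow-f2 and Thor. Lpin (chromosome 2R, 8136986 to 8156654), a phosphatidate phosphatase of lipid synthesis, had 2184, 2046, 2008 and 1876 in late discs and 4268, 4751, 4532 and 4170.2 in early discs. Each pool spanned little of the gap between them, and the difference was -1.13 (SE 0.08, adjusted p = 0.001). The folate enzyme gene pug (chromosome 3R, 10696534 to 10703316) had 1385, 1593, 1675 and 1717 in late discs and 8092, 11197, 10769 and 6306 in early discs. Its 25 h A library was higher than all 8, with 18325 and 8066 at 25 h A and 25 h B, and the difference was -2.48 (SE 0.19, adjusted p = 0.001). Eno (chromosome 2L, 1724768 to 1729636), the glycolytic enolase, had 15618, 13012, 14416 and 14409 in late discs and 32420.5, 40295, 43558 and 34559 in early discs, with no overlap and a difference of -1.39 (SE 0.12, adjusted p = 0.001). Thor (chromosome 2L, 3478434 to 3479612), the translation inhibitor 4E-BP, had 244, 206, 223 and 223 in late discs and 1772, 1069, 2075 and 1079 in early discs. The late libraries lay within a narrow range, the 25 h ones at 1282 and 1562 with the early pool, and the difference was -2.68 (SE 0.23, adjusted p = 0.001), a 6.39-fold lower level.

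The other lower genes of that group differed by more. Sodh1 (chromosome 3R, 7052335 to 7054541), a sorbitol dehydrogenase, had 13.4, 36.1, 7.35 and 6.55 in late discs and 3004, 4348, 5971 and 1259.7 in early discs. All late libraries lay far below the lowest early one, 15 h B, and the difference was -7.86 (SE 0.62, adjusted p = 0.001). The fatty acid elongase gene sit (chromosome 3R, 22558342 to 22562572) had 2.68, 0, 1.34 and 0 in late discs, where 35 h B and 48 h B held no read, and 291, 440.4, 181 and 169.8 in early discs. Since so few reads remained, no fold is given, and the difference on the log2(signal + 1) scale was -7.20 (SE 0.55, adjusted p = 0.001). The neuropeptide-like precursor gene Nplp4 (chromosome 2L, 2008414 to 2009072) had 616, 521, 511 and 702 in late discs and 22752, 37905, 27064 and 8895 in early discs. Its 25 h libraries disagreed, with 3421 and 38843, and the difference was -5.19 (SE 0.40, adjusted p = 0.001). For yellow-f2 (chromosome 3R, 12993395 to 12995147), a gene of melanin synthesis, the difference was -5.11 (SE 0.44, adjusted p = 0.001).

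The 5 largest rises by the naming rule were those of ImpE2, Sgs7, Sgs8, Sgs5bis and Eig71Ee. ImpE2 (chromosome 3L, 3510974 to 3512681), an ecdysone-induced gene of imaginal discs, had 3154, 3951, 78300.3 and 49804 in late discs and 22.3, 18.7, 51.4 and 16.1 in early discs. The 48 h libraries stood far above the 35 h ones, which in turn stood far above all early and 25 h values (18.2 and 102), and the difference was 9.20 (SE 1.08, adjusted p = 0.00146). The glue gene Sgs7 had 759.7, 3414, 84.9 and 102 in late discs and 0, 1.33, 0 and 0 in early discs, and Sgs8 had 184, 903, 28.7 and 34.6 in late discs and no read in any early library. Sgs5bis likewise had 156, 919.7, 79.6 and 41.7 in late discs and no read in early discs, and Eig71Ee, an ecdysone-induced salivary gland gene, 699, 2705, 118 and 192 in late discs and 0, 1.33, 1.28 and 0 in early discs. In all 4 genes the 35 h B library was the highest late one, and the 25 h B library (1325, 245, 570.0 and 1319 for Sgs7, Sgs8, Sgs5bis and Eig71Ee) exceeded the other 3 late ones. No fold is given for these genes, since the early libraries held at most 1 read each.

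The 5 largest falls by the naming rule were those of epsilonTry, Lcp65Ag1, thetaTry, GstD7 and Mal-A1. The trypsin genes epsilonTry and thetaTry differed by -9.71 (SE 1.41, adjusted p = 0.00252) and -9.05 (SE 1.48, adjusted p = 0.00343), the maltase gene Mal-A1 by -8.54 (SE 1.38, adjusted p = 0.00333) and the glutathione transferase gene GstD7 by -8.69 (SE 1.04, adjusted p = 0.00151). Late discs had 15.5 to 30.9 for epsilonTry, 6.69 to 27.1 for Mal-A1 and 1.19 to 32.2 for GstD7. Early discs had 75754, 11372, 161638 and 989.9 for epsilonTry, 13455, 3088, 57783 and 374 for Mal-A1 and 5245, 4971, 12322 and 957 for GstD7, so that 15 h A was the highest and 15 h B the lowest early library of each. Lcp65Ag1, a larval cuticle gene, had 40.3, 18.1, 7.35 and 4.17 in late discs and 31572, 22780.5, 2842 and 6806 in early discs, with the 6 h libraries highest and a difference of -9.64 (SE 0.89, adjusted p = 0.001). The trypsin, Gst and Lcp65Ag genes have close copies beside them, between which reads may be split, so the values of single copies are uncertain. The genes with the largest falls and little movement of the mean within each pool were Mal-A8, Dgat2, alphaTry, GstE9 and Cyp311a1, with differences of -7.44, -7.14, -5.31, -5.28 and -5.28. Their early libraries had the same wide spread. Mal-A8, a maltase gene, had 12.1, 6.45, 7.35 and 6.55 in late discs and 3005, 605, 31059.9 and 96.7 in early discs.

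Some of these genes are themselves markers of tissues other than the disc epithelium: epsilonTry and alphaTry of gut, and Lcp65Ag1 of cuticle. The shares of those lists therefore contain these falls and are not independent of them. The 18 gut markers took 0.00227% to 0.0325% of the reads in late libraries, and 0.873%, 0.589%, 1.64% and 0.0806% in 6 h A, 6 h B, 15 h A and 15 h B (exact permutation test of the log2 shares over 70 splits, two-sided p = 0.0286, the smallest it allows, and 0.0524 after Benjamini-Hochberg adjustment over the 11 marker lists). All 17 tested gut markers were called lower, with a median of -5.45. The 6 differentiated muscle markers took 0.0214% to 0.224% in late and 0.460% to 0.851% in early libraries (p = 0.0286, adjusted 0.0524, exact permutation test), and all 6 were called lower, among them the actin gene Act87E at -3.25 (SE 0.40, adjusted p = 0.0017) and the muscle protein gene Mp20 at -4.40 (SE 0.65, adjusted p = 0.00258). The haemocyte markers had 0.0601% to 0.329% in late and 0.284% to 0.671% in early libraries, and the fat body markers 0.214% to 0.640% in late and 0.624% to 2.47% in early libraries (p = 0.0571, adjusted 0.0786 for each, exact permutation test). Of the haemocyte markers 8 of 12 tested were called lower (5 by edgeR), and of the fat body markers 5 of 11 lower and 1 higher. Cuticle markers took 4.74e-05% to 0.000297% in late and 0.00802% to 0.120% in early libraries, and Lcp65APsi had no read in late ones. Their part in the pooled differences was not tested.

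None of the marker lists had a share difference with an adjusted p under 0.05 in the exact permutation test. In that test, lists whose late and early shares did not overlap had the smallest p it allows, 0.0286, adjusted 0.0524. Even complete separation could therefore not pass here, and no conclusion is drawn from the lack of a pass. Salivary gland markers took 0.00193% to 0.0486% of the reads in late and 0.000624% to 0.00342% in early libraries (p = 0.171, adjusted 0.189, exact permutation test). Single genes of that list were called, 8 higher and 3 lower of 11. Among the higher ones were Sgs7, Sgs8 and Eig71Ee, named above for their large rises, so the count is not independent of those rises. The 3 lower ones were the larval glue-related genes ng1, ng2 and ng3. Glia markers took 0.0371% to 0.0431% in late and 0.0187% to 0.0360% in early libraries (p = 0.0286, adjusted 0.0524, exact permutation test), although 3 of 7 tested were called lower and 1 higher. Their median, -0.68, turned to 0.10 under quantile normalization. Neuronal markers took 0.00614% to 0.00774% in late and 0.00531% to 0.0105% in early libraries (p = 0.886, adjusted 0.886, exact permutation test), with Rdl at 0 in all late ones. For trachea the shares were 0.228% to 0.296% in late and 0.132% to 0.244% in early libraries (p = 0.0857, adjusted 0.105, exact permutation test), and for adult muscle precursors 0.0312% to 0.0486% in late and 0.0123% to 0.0236% in early ones (p = 0.0286, adjusted 0.0524, exact permutation test). Of the 4 muscle precursor markers tested, 2 were called higher (hbs and Ama), while zfh1 and ct did not pass.

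All 13 markers of wing disc epithelium, the labelled tissue, had a signal past the filter on low values. They took 0.467% to 0.485% of the reads in late libraries and 0.185%, 0.170%, 0.149% and 0.317% in 6 h A, 6 h B, 15 h A and 15 h B (p = 0.0286, adjusted 0.0524, exact permutation test). Of the 13, 12 were called higher and none lower, with a median of 0.998. Apart from pdm2, these markers are also members of the transcription factor, Hedgehog, Wnt, adherens junction or septate junction lists given below. The counts of those lists and of the markers are therefore not independent.

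The counts of gene lists given here stand against 19.5% higher and 27.0% lower over all genes tested. Counts under quantile normalization stand against 38.2% higher and 17.9% lower, and those with a common median against 34.7% and 21.6%. Without both 15 h libraries, 3021 of the 10453 genes tested were higher and 3872 lower. Without 15 h A these were 1987 and 2970, without 15 h B 2700 and 3389, and by edgeR 2101 and 2863. List counts under those settings stand against these. With the deposited scaling, shares within 5 percentage points of those over all genes were those of higher juvenile hormone, integrin and adhesion, Osiris and G1 to S genes, and of lower tubulin, cell death, mitochondrial genome, Hox and salivary gland marker genes, and they are no result about those lists. Genes that pattern the disc were mostly higher in late discs. Of 37 transcription factor genes of wing, hinge and notum, 29 were called higher and 1 lower, 21 of the higher ones by at least 2-fold, with a median of 1.08 against -0.07 over all genes. The wing selector vg had 3928, 4130.3, 3839.9 and 4175 in late discs and 1342, 1365, 1339.5 and 2490.3 in early discs. The late libraries were alike and 15 h B was the highest early one, with a difference of 1.35 (SE 0.20, adjusted p = 0.00262). The EBF-type factor kn, which specifies the region between the central wing veins, had 444, 450.2, 755 and 730.4 in late discs and 47.1, 78.7, 74.5 and 109 in early discs, with a difference of 2.94 (SE 0.30, adjusted p = 0.0012). The pools did not overlap, and 48 h lay above 35 h. The Iroquois gene ara differed by 2.07 (SE 0.26, adjusted p = 0.00184), the notum gene eyg by 1.92 (SE 0.22, adjusted p = 0.00142), the hinge gene hth by 1.13 (SE 0.12, adjusted p = 0.00124) and the pouch gene nub by 1.12. The rotund gene rn, with 2929.9, 2857, 2927 and 2930.1 in late discs and 1241, 1684, 1789 and 3073 in early discs, did not pass (0.66, SE 0.24, adjusted p = 0.0525), and its 15 h B library lay above the late ones. Nor did ct, a gene of the wing margin (0.01, SE 0.21, adjusted p = 0.982). The 1 lower member was Lim1, at -2.37. Without both 15 h libraries 33 of the 37 were called higher and 1 lower.

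Notch pathway genes were called higher in 21 of 25 cases and lower in none, with a median of 0.78. Beside the ligand Delta, the receptor N had 31076, 30113, 39136 and 40762 in late discs and 17394, 17903, 17733 and 30230.0 in early discs, where 15 h B overlapped the late pool, with a difference of 0.79 (SE 0.20, adjusted p = 0.0154). The ligand Ser differed by 0.60 and the modifying glycosyltransferase fng by 0.99. The largest differences were in target genes of the pathway: E(spl)malpha-BFM had 1607, 1741, 1947 and 2078 in late discs and 178, 215, 279 and 519 in early discs, a difference of 2.74 (SE 0.31, adjusted p = 0.00132), and E(spl)m7-HLH and E(spl)m4-BFM differed by 2.11 and 2.03. The ubiquitin ligase genes neur (0.24, SE 0.12, adjusted p = 0.125) and Su(dx) (-0.26, SE 0.25, adjusted p = 0.398), which act on the ligand and the receptor, did not pass.

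Of 15 Hedgehog genes 13 were called higher, of 18 Dpp genes 14 and of 22 Wnt genes 15, and none of these lists had a member called lower. Their medians were 0.73, 0.78 and 0.68. The ligand hh had 1509, 1535, 1804 and 1783 in late discs and 576, 591, 605 and 931 in early discs. Each late library exceeded every early one, the nearest being 15 h B, with a difference of 1.32 (SE 0.17, adjusted p = 0.00186). The posterior selector en, which controls hh, had 1517, 1556, 2088 and 2211 in late discs and 649, 591, 697 and 1062 in early discs and differed by 1.31 (SE 0.21, adjusted p = 0.00334). The pathway's transcription factor ci differed by 0.90, while its receptor ptc, itself a target, did not pass (0.31, SE 0.20, adjusted p = 0.217). In the Dpp list the ligand dpp had 2398, 2251, 2193 and 2072 in late discs and 1948, 2046, 1426 and 2542 in early discs, which overlapped, and did not pass (0.19, SE 0.16, adjusted p = 0.355). The extracellular regulator cv-2 was higher (1.04, SE 0.14, adjusted p = 0.002), as were the type I receptor tkv, at 0.82, the repressor brk, at 1.57, and the target salm, at 1.05. The inhibitory Smad gene Dad had 0.33 (SE 0.14, adjusted p = 0.0742) and did not pass. In the Wnt list the ligand wg had 2138, 2169.6, 2804 and 2751 in late discs and 1623, 1573, 1157 and 1570.3 in early discs, with a difference of 0.74 (SE 0.15, adjusted p = 0.00629). The receptor fz2 had 15561, 16237, 17789 and 17493 in late discs and 5673, 5866, 6817 and 10776 in early discs and differed by 1.25 (SE 0.20, adjusted p = 0.00304). The deacylase gene Notum and the inhibitor nkd, both targets, differed by 1.27 and 1.07, while the kinase gene sgg did not pass (-0.09, SE 0.11, adjusted p = 0.504). Without 15 h A the higher calls were 14 Hedgehog, 11 Dpp and 15 Wnt genes, and without both 15 h libraries 15, 15 and 17.

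Bristle genes were among those that rose. The proneural gene ac had 495, 557, 490.0 and 539 in late discs and 46.2, 34.7, 82.2 and 133 in early discs, and its neighbour sc had 611, 644, 711 and 811 in late discs and 47.1, 62.7, 128 and 153 in early discs. Neither overlapped, and the 25 h values, 257 and 257 for ac and 421 and 390.0 for sc, lay between. The differences were 2.98 (SE 0.39, adjusted p = 0.00195) and 2.97 (SE 0.37, adjusted p = 0.00172). The sensory organ precursor gene sens had 47.0, 59.3, 211 and 195 in late discs and 8.56, 8.01, 10.3 and 12.9 in early discs. At 25 h it had 147 and 177, above the 35 h libraries, and the difference between the pools was 3.28 (SE 0.54, adjusted p = 0.00351). The list of 15 held 7 higher and 3 lower genes, and 12 and 1 under quantile normalization. The lower genes were cpo, pros and peb, at -1.42, -2.16 and -1.39, known from neurons and other tissues. The adaptor gene phyl, with few reads, did not pass (2.17, SE 0.79, adjusted p = 0.0532).

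The EGF receptor pathway had 17 of 25 genes higher and none lower, with a median of 0.48. Egfr itself had 14074, 14017, 17641 and 17435 in late discs and 7443, 7162, 7511 and 11168 in early discs and differed by 0.94 (SE 0.16, adjusted p = 0.00397). The inhibitor kek1, a target of the pathway, had 6947, 6619.8, 7255 and 7422 in late discs and 1226, 1455, 1694 and 3694 in early discs, with a difference of 1.95 (SE 0.31, adjusted p = 0.00311). The ligand spi (0.35, SE 0.17, adjusted p = 0.128) and the feedback inhibitor sty (0.04, SE 0.17, adjusted p = 0.848) did not pass. In the JAK-STAT list 2 of 14 genes were higher and 6 lower. The lower ones included all 3 ligand genes: upd2 had 13.4, 5.16, 9.36 and 4.77 in late discs and 15.4, 22.7, 21.8 and 24.7 in early discs (-1.36, SE 0.40, adjusted p = 0.0264), upd3 25.5, 31.0, 17.4 and 7.15 in late discs and 60.8, 73.4, 36.0 and 50.5 in early discs (-1.53, SE 0.47, adjusted p = 0.0304), and upd1 differed by -1.12. Levels of these genes were low and the late values lay below the early ones in upd2 and upd3. The receptor gene dome (0.23, SE 0.15, adjusted p = 0.222) and Stat92E (0.03, SE 0.08, adjusted p = 0.747), the transcription factor, did not pass. After either quantile or common-median scaling, 1 of the 14 was called lower.

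Hippo pathway genes were higher in 11 of 18 cases and lower in 1, with a median of 0.47 and no member at 2-fold, and 17 were higher with a common median. The kinase gene wts had 1969, 1889.7, 2025 and 1929 in late discs and 1489.9, 1583, 1562 and 1543 in early discs. Both pools were narrow, and the small difference, 0.34 (SE 0.07, adjusted p = 0.00702), passed. The coactivator yki differed by 0.48 and the atypical cadherin ds by 0.84, while its partner ft, with 15 h B above the late pool, did not pass (0.50, SE 0.20, adjusted p = 0.0652). The lower member was kibra, an upstream activator, at -0.91. In planar cell polarity 11 of 16 genes were higher and none lower. The core genes pk and Vang differed by 1.49 (SE 0.24, adjusted p = 0.00334) and 0.92 (SE 0.15, adjusted p = 0.00366). Septate junction genes were higher in 17 of 23 cases, for example vari at 0.42 and Fas3 at 0.998. The 2 lower ones were nrm, at -1.27, and hoka, a component of the smooth junctions of gut cells, at -6.70. Of 19 genes of apicobasal polarity and adherens junctions 12 were higher and none lower, for example the kinase gene aPKC (0.56, SE 0.11, adjusted p = 0.00564).

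In the matrix beneath the epithelium more genes were lower than higher. Of 18 genes of the basement membrane, 8 passed as lower and 2 as higher. The collagen IV gene vkg had 10501, 6593, 4594 and 5729 in late discs and 56389.7, 94850.5, 17219 and 23440.5 in early discs. The 6 h libraries were the highest and the pools did not overlap, with a difference of -2.55 (SE 0.53, adjusted p = 0.00717). Its partner Col4a1 differed by -2.77, the perlecan gene trol by -1.76 (SE 0.28, adjusted p = 0.00334) and the nidogen gene Ndg by -4.19. The laminin gene LanA had 36306, 31724, 37441 and 36733 in late discs and 37017, 52618, 34181 and 39573 in early discs, which overlapped, and did not pass (-0.18, SE 0.14, adjusted p = 0.314). The higher members were the protease gene Mmp2, at 2.08, and its inhibitor Timp, at 1.33. Collagen IV and perlecan of the disc are known to come largely from fat body and blood cells. Of the fat body markers 5 of 11 were called lower and 1 higher, and of the haemocyte markers 8 of 12 lower. The late and early ranges of both marker shares overlapped, and the part of these tissues was not tested. Among 17 integrin and adhesion genes 8 were lower and 4 higher, but 3 lower and 6 higher with a common median. The latter counts are near the shares over all genes under that scaling (21.6% lower and 34.7% higher) and are no result about the list. The integrin subunit mew rose (0.81, SE 0.11, adjusted p = 0.00204), the paxillin gene Pax fell (-1.75) and the common beta subunit mys did not pass (0.08, SE 0.17, adjusted p = 0.708).

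All 6 imaginal disc growth factor genes, which encode secreted chitinase-like proteins, were lower. Idgf3 had 469.7, 286, 193 and 215 in late discs and 1978, 3308, 2304 and 1057 in early discs. Its 25 h A library, at 3981, lay above all 8 and 25 h B, at 2078, within the early range. The difference was -2.86 (SE 0.39, adjusted p = 0.00216), and that of Idgf4 -1.57 (SE 0.26, adjusted p = 0.00366). The family is known to be expressed in fat body and blood cells too. Of 10 genes with zona pellucida domains, which hold the apical matrix, 6 were higher and 1 lower. The wing cuticle gene dy had 22.8, 15.5, 64.8 and 56.0 in late discs and 0.856, 2.67, 5.14 and 10.7 in early discs. Its level was low throughout and without overlap (2.89, SE 0.69, adjusted p = 0.0119), nyo differed by 3.86 and neo by 2.34, while dpy, with a long-lived giant protein, did not pass (-0.05, SE 0.14, adjusted p = 0.763). Chitin genes were split, 8 higher and 10 lower of 21, with the synthase gene kkv at 0.65 and the chitinase gene Cht10 at 2.40 on the higher side and the deacetylase genes verm and serp at -0.76 and -0.67 on the lower.

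Ecdysone response genes were higher in 9 of 23 cases and lower in 4, with a median of 0.49. The early-response gene br, which marks the change to the pupal programme, had 18028, 17486, 24338 and 22154 in late discs and 3241, 4292, 5529 and 8250.2 in early discs. Values were ordered by time in means, 25 h lay between (10715 and 12425), and the difference was 2.02 (SE 0.27, adjusted p = 0.00208). Eip74EF, an ETS factor, differed by 1.24 (SE 0.29, adjusted p = 0.0106) and ImpE1 by 3.96 (SE 0.94, adjusted p = 0.0113). The receptor gene EcR had 7376, 7542, 4971 and 5624 in late discs and 3095, 3284, 4359 and 6198 in early discs. Its 15 h B and 25 h values (7433 and 6944) lay above both 48 h libraries, and the pooled difference did not pass (0.63, SE 0.24, adjusted p = 0.0617). In Hr4 the late libraries differed among themselves (121, 94.2, 2910.0 and 300.3), against 53.9, 78.7, 60.4 and 43.0 in early discs, and the difference did not pass (2.44, SE 0.98, adjusted p = 0.0715), although all late values exceeded the early ones. The ecdysone-inactivating enzyme gene Cyp18a1 had 41.6, 16.8, 112 and 36.3 in late discs and 734, 901, 325 and 198 in early discs and was lower (-3.43, SE 0.66, adjusted p = 0.00532). The small heat shock gene Hsp23, which ecdysone is known to induce, had 23588, 25150.5, 64885 and 68799.5 in late discs and 223, 303, 611 and 6088 in early discs (5.83, SE 0.99, adjusted p = 0.00375), and Hsp27 10972, 10465, 28164 and 25904 in late discs and 611, 793, 1914 and 4944 in early discs (3.54, SE 0.67, adjusted p = 0.00523). In both, 15 h B was the highest early library and 48 h the higher late time. Hsp26 did not pass (2.09, SE 0.82, adjusted p = 0.0663), and its 15 h B library overlapped the late pool. In the list 3 of the 5 members tested were higher, and 4 without 15 h B.

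Of 10 juvenile hormone genes 2 were higher and 5 lower. The response gene Kr-h1 had 1221, 1434, 1517 and 1537 in late discs and 432, 406, 551 and 867 in early discs and was higher (1.40, SE 0.23, adjusted p = 0.00366). The hormone receptor gene gce was lower, at -2.41, while its paralog Met did not pass (0.26, SE 0.13, adjusted p = 0.13). The other lower members were the epoxide hydrolase gene Jheh3, the esterase gene Jhe, JhI-26 and the binding protein gene Jhbp1, at -5.62, -3.99, -4.77 and -4.74. Among 7 temporal identity factors chinmo, which maintains the larval state, had 5169.9, 4596, 1264 and 1198 in late discs and 9825, 9509, 7801 and 11967 in early discs. The 48 h libraries lay well below the 35 h ones, and the difference was -1.98 (SE 0.51, adjusted p = 0.015). The RNA-binding protein gene Syp had 34191, 34758, 38254 and 38174 in late discs and 7193, 10198, 11857 and 14144 in early discs, without overlap (1.78, SE 0.19, adjusted p = 0.00124), and its opponent Imp did not pass (-0.72, SE 0.29, adjusted p = 0.0688).

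**Figure D4:**
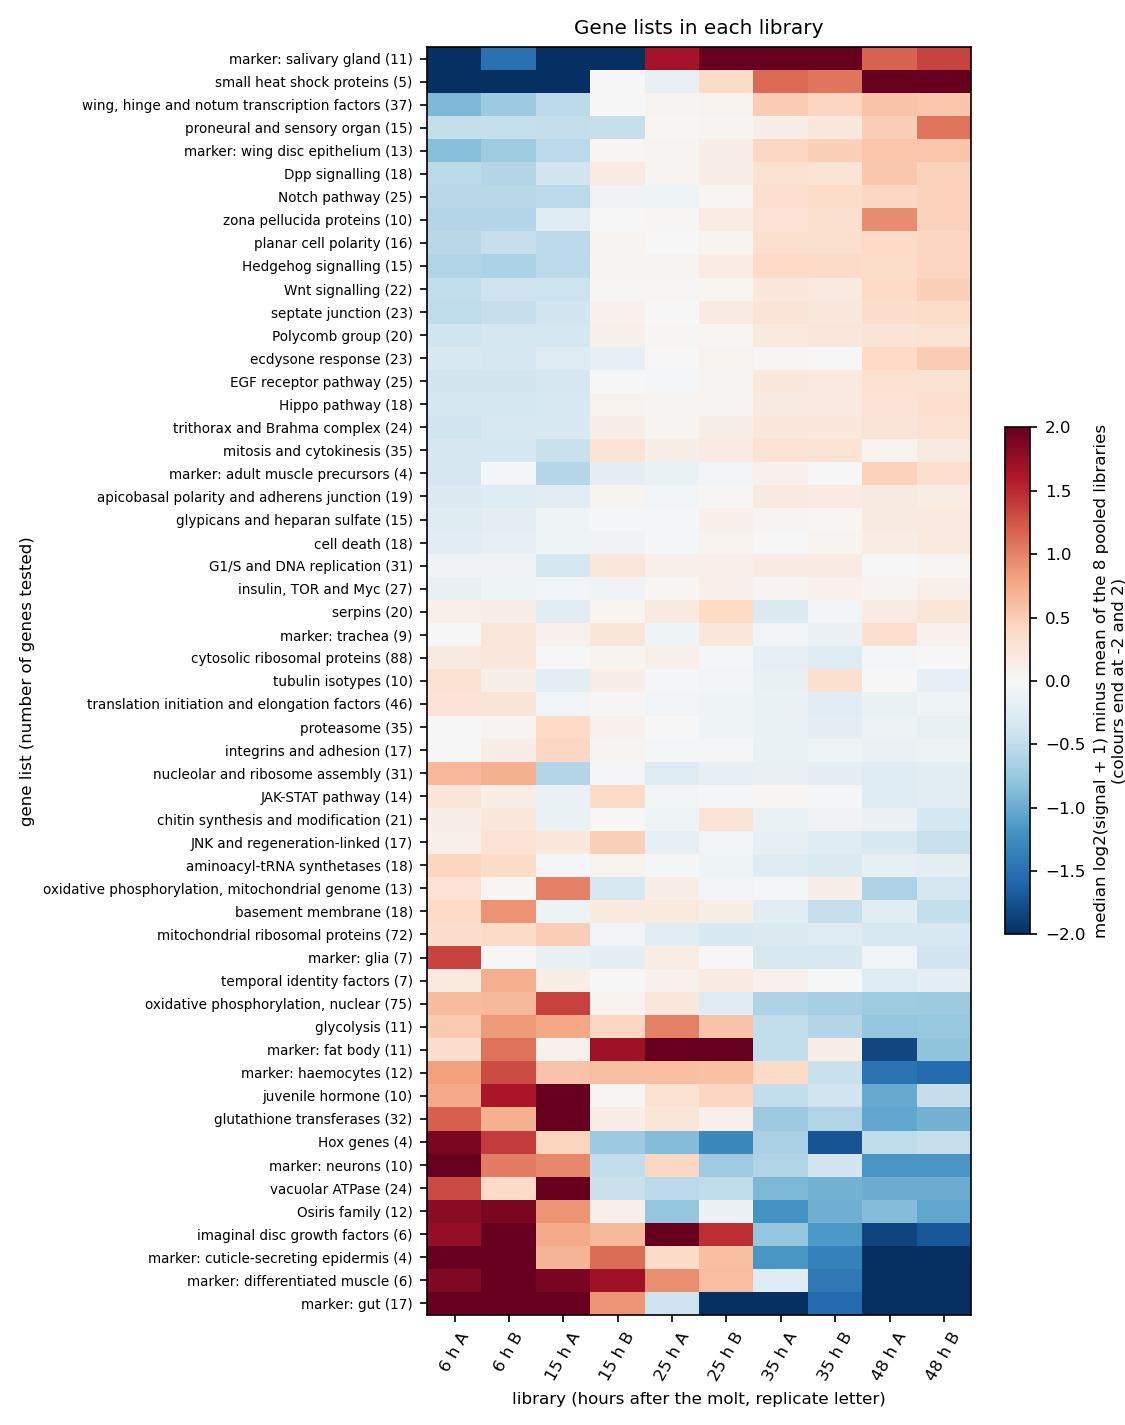
Rows are the 55 gene lists, with the number of genes tested, ordered by their pooled difference; columns are the 10 libraries in order of time. Colour gives the median over a list of log2(signal + 1) minus each gene's mean over the 8 pooled libraries, red above and blue below, with colours ending at -2 and 2; patterning lists near the top pass from blue to red between 15 h A and 35 h, with 15 h B near white, and respiratory and gut-related lists near the bottom do the reverse.

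Most nuclear genes of oxidative phosphorylation and glycolysis were lower. Of 75 nuclear genes of oxidative phosphorylation 66 were lower, 61 of them by at least 2-fold, and none higher, with a median of -1.36. By steps the median was 0.08 at 15 h against 6 h, -1.37 at 35 h against 15 h and -0.06 at 48 h against 35 h. Cyt-c1, a subunit of complex III, had 2657, 2440.5, 2616 and 2355 in late discs and 11229.8, 11212, 17681 and 5899.6 in early discs. Early libraries ranged widely, 15 h A highest and 15 h B lowest, but all lay above the late ones (-2.09, SE 0.29, adjusted p = 0.00219). The testis-type gene ND-51L1 did not pass (-0.01, SE 0.22, adjusted p = 0.976). Of 13 genes of the mitochondrial genome 4 were lower, with a median of -0.50 that became 0.06 under quantile normalization. Glycolysis had 9 of 11 genes lower and none higher, with a median of -1.39. The pyruvate kinase gene PyK had 10893, 9771, 8643 and 8744 in late discs and 21300.2, 26473, 25295 and 19477 in early discs (-1.28, SE 0.13, adjusted p = 0.00115), and lactate dehydrogenase, Ldh, 1068, 392, 448 and 256 in late discs and 4006, 6002, 3805 and 6357 in early discs (-3.39, SE 0.41, adjusted p = 0.00157). Neither overlapped, and PyK moved little within each pool. Pfk, the phosphofructokinase gene, did not pass (-0.16, SE 0.08, adjusted p = 0.158).

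Vacuolar ATPase genes were lower in 16 of 24 cases and higher in 1, with a median of -1.95. Vha55 had 3515, 3363, 4455 and 3888 in late discs and 30851, 18578, 83229 and 8293 in early discs. The order of the early libraries, with 15 h A first and 15 h B last, was that of the gut marker share, and the difference was -2.73 (SE 0.60, adjusted p = 0.00877). Of 32 glutathione transferase genes 21 were lower and 2 higher. Without both 15 h libraries the lower calls were 18 vacuolar ATPase, 23 glutathione transferase, 66 nuclear oxidative phosphorylation and 10 glycolysis genes. Over all genes tested, 3872 of 10453 were lower without those libraries. The share of gut markers was higher in all early libraries, as given above, and its part in these falls was not tested.

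Counts in the lists of protein synthesis depended on the scaling. Of 72 mitochondrial ribosomal protein genes 60 were lower, with a median of -0.57, but 37 after quantile normalization and 32 with a common median. Of 18 aminoacyl-tRNA synthetase genes 13 were lower, with a median of -0.43, but 5 and 3 under those scalings and 7 by edgeR. Among the 88 genes for cytosolic ribosomal proteins, 12 passed as lower and none as higher. Their median was -0.22 as deposited, 0.23 after quantile normalization and 0.09 after scaling to a common median. Under these scalings 0 and 1 were lower and 9 and 7 higher, and edgeR called 2 lower. Without 15 h A 19 were lower, without 15 h B 18, and without both 15 h libraries 43. Over all 10453 genes tested, those settings gave 2970, 3389 and 3872 lower. The large subunit gene RpL10 had 50254, 50186, 50413 and 53259.5 in late discs and 65695, 66906, 62907 and 59501 in early discs, without overlap (-0.32, SE 0.09, adjusted p = 0.0195), although quantile normalization turned its difference to 0.21, and RpL3 did not pass (-0.27, SE 0.15, adjusted p = 0.162). Translation factors had 20 of 46 lower and 1 higher, with a median of -0.28 that turned to 0.02 and 0.04 under those scalings, where 1 and 2 were lower and 6 and 4 higher. Without both 15 h libraries 33 were lower. The proteasome had 14 of 35 lower and none higher, and its median of -0.28 turned to 0.04 with a common median, where 1 was lower, against 3 after quantile normalization and 9 by edgeR. For tubulin isotypes, with 1 of 10 higher and 3 lower, the median of -0.26 turned to 0.47 and 0.06.

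Nucleolar and ribosome assembly genes differed most within the early pool. None of 31 was called by limma, with 0 also at an unadjusted p under 0.05, by edgeR and by DESeq2. Without 15 h B the count was also 0, while 23 were lower without 15 h A and 30 without both 15 h libraries. Relative to their own means, the list medians were 0.66 and 0.71 in the 6 h libraries, -0.58 and -0.04 in 15 h A and 15 h B, -0.14 and -0.17 at 35 h and -0.25 and -0.23 at 48 h. The ribosome assembly gene Nop56 had 6862, 6867, 5303 and 5279 in late discs and 11744, 11953, 4105 and 6037 in early discs, and the nucleolar gene mod 17004, 17046, 15535 and 15270.1 in late discs and 37293, 36926, 13105 and 18265 in early discs. In both the 6 h libraries were the highest and 15 h A the lowest of the 8, so that the pools overlapped. The differences were -0.35 (SE 0.34, adjusted p = 0.413) and -0.57 (SE 0.33, adjusted p = 0.185).

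Cell cycle genes depended on the same libraries. Of 35 genes of mitosis and cytokinesis 13 were higher and none lower, 31 higher without 15 h B and 9 without 15 h A, 21 after quantile scaling and 27 after common-median scaling, and the median was 0.41. The securin gene pim had 1624, 1645, 1104 and 1232 in late discs and 596, 549.8, 591 and 1009 in early discs. The 35 h libraries were above those of 48 h, and the difference was 1.05 (SE 0.23, adjusted p = 0.00771). The phosphatase gene stg, which triggers entry into mitosis, had 7387, 7261, 3887 and 4375 in late discs and 3812, 4184, 3871 and 5929.7 in early discs and did not pass (0.33, SE 0.25, adjusted p = 0.297), with 48 h at the level of the early pool. Of 31 genes of the G1 to S transition and DNA replication 6 were higher and none lower, or 19.4% against 19.5% over all genes. The higher calls were 14 without 15 h B, 13 without both 15 h libraries and 13 with a common median, while 1 gene was lower without 15 h A and 2 without both. The median was 0.13. E2f1, the activating factor of S-phase genes, differed by 0.36 (SE 0.08, adjusted p = 0.00946), and the cyclin gene CycE did not pass (0.25, SE 0.11, adjusted p = 0.0869).

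In the insulin, TOR and Myc list 9 of 27 genes were higher and 3 lower, and 15 and 1 with a common median. The receptor gene InR had 3547, 3561, 4837 and 4249 in late discs and 1433, 1064, 1383 and 1826 in early discs, without overlap (1.52, SE 0.18, adjusted p = 0.00141), while Thor was lower, as given above. Myc was higher (0.74, SE 0.22, adjusted p = 0.0249) with 6 h B inside the late range, and mTor did not pass (0.09, SE 0.12, adjusted p = 0.542). Among 18 cell death genes 7 were higher and 5 lower, the lower ones 27.8% against 27.0% over all genes. Quantile normalization gave 12 higher and 3 lower. The pro-apoptotic gene rpr had 436, 432, 401 and 379.5 in late discs and 873, 1038, 669 and 1739 in early discs and was lower (-1.30, SE 0.27, adjusted p = 0.00659), while hid, of the same function, had 1152, 1334, 2088 and 2125 in late discs and 657, 837, 577 and 1428 in early discs and was higher (0.98, SE 0.32, adjusted p = 0.037). The caspase inhibitor Diap1 did not pass (0.38, SE 0.15, adjusted p = 0.0643). Of 17 JNK and regeneration-linked genes 6 were lower and 1 higher, but 0 were lower after quantile scaling and 2 after common-median scaling. The TNF ligand egr had 201, 197, 183 and 196 in late discs and 285, 542, 412 and 290.2 in early discs and was lower (-0.92, SE 0.22, adjusted p = 0.0124), and its receptors wgn and grnd were higher, at 0.92 (SE 0.13, adjusted p = 0.00238) and 1.04.

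Both lists of chromatin regulators held higher genes and no lower ones. Of 20 Polycomb group genes 14 were higher and none lower, with a median of 0.56 and no member at 2-fold. Asx, which takes part in histone H2A deubiquitination, had 2961, 2956, 3002 and 3031 in late discs and 1799.8, 1902, 1873 and 2305 in early discs. The late libraries were almost equal, above all early ones (0.61, SE 0.09, adjusted p = 0.00281). Jarid2 did not pass (0.21, SE 0.14, adjusted p = 0.233). Of 24 trithorax and Brahma complex genes 13 were higher, 1 of them (Mnn1, given above) by at least 2-fold, and none lower, with 20 higher under a common median and 22 without 15 h B. The founding member trx differed by 0.91 (SE 0.18, adjusted p = 0.00599). In the Hox list 1 of 4 genes was called, Scr, at -1.93 (SE 0.66, adjusted p = 0.0418), and no Hox gene was called without 15 h A or under either other scaling. Without 15 h B, and without both 15 h libraries, 3 of the 4 were lower. Antp, the Hox gene of the wing segment, had 1471, 1241, 981 and 967 in late discs and 1259, 1369, 841 and 1119 in early discs and did not pass (0.02, SE 0.19, adjusted p = 0.925).

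Chromosome 4, the small heterochromatin-rich autosome, had the highest percentage of higher genes in a count by chromosome that was made after the values were seen. Of its 76 tested genes 42 (55.3%) were higher in late discs and 12 (15.8%) lower, against 1996 of 10377 (19.2%) higher and 2810 (27.1%) lower on the other chromosomes. The median difference was 0.47 on chromosome 4 and -0.08 elsewhere. By steps its median was 0.05 at 15 h against 6 h, 0.43 at 35 h against 15 h and -0.12 at 48 h against 35 h. Genes there are long, with a median span of 9543 bp against 2569 bp over all genes tested. At a mean signal of at least 1000, 36 of 48 (75%) were higher on chromosome 4 and 1055 of 4069 (25.9%) elsewhere. At 100 to 1000, 4 of 10 were higher and 4 lower (40% each) on chromosome 4, against 19.1% higher and 30.9% lower elsewhere, with medians of -0.49 and -0.10. Under 100, 2 of 18 (11.1%) were higher on chromosome 4 and 222 of 2537 (8.75%) elsewhere, with medians of -0.82 and -0.39. Among genes that span at least 5977 bp with a mean signal of at least 1000, 28 of 34 (82.4%) were higher on chromosome 4 and 559 of 1403 (39.8%) elsewhere. Members include zfh2, a zinc finger gene of the wing hinge, with 19115, 18532, 17027 and 17359 in late discs and 6799, 7757, 8963 and 14041 in early discs (0.99, SE 0.21, adjusted p = 0.00701), and the Wnt pathway factor pan, with 5689, 6268, 4682 and 5018 in late discs and 2914, 3057, 2909 and 3477 in early discs (0.80, SE 0.11, adjusted p = 0.00234). Neither overlapped between the pools. Sox102F had 506, 622, 1003 and 897 in late discs and 60.8, 49.4, 95.0 and 152 in early discs, the largest of these (3.15, SE 0.38, adjusted p = 0.00157). Among 22 alternative settings and left-out libraries, the higher calls on chromosome 4 numbered 23 to 48 and their percentage stayed above that of the other chromosomes in each. Genes near each other are not independent, and no test was made of this count.

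**Figure D5:**
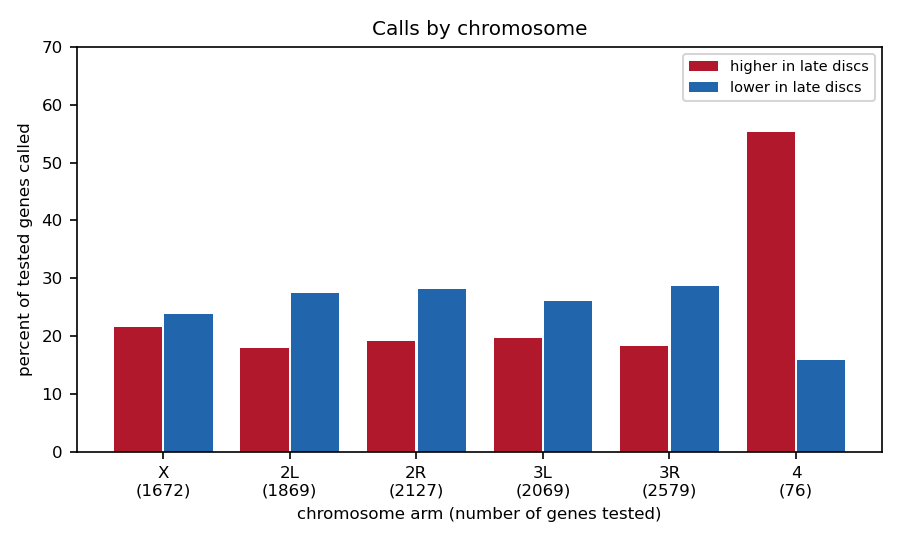
Percentage of tested genes called higher (red) and lower (blue) in late discs by chromosome arm, with the number of genes tested. Chromosome 4 has 55.3% higher and 15.8% lower, while the arms of the other chromosomes have 18% to 21.5% higher and 23.9% to 28.7% lower.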

How the data were processed

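RNA-seq of wing discs gave 1 table of 10 libraries. The unit is signal: per the file headers and the values, the authors deposited normalized gene counts, which came out as whole reads within 0.001 for 100% of the values once divided by the signal of 1 read in each library. Per the submitters' processing notes, STAR 2.7.10a and featureCounts were used with the builds dm6 and BDGP6; the normalization tool, strand setting and gene filter are not given in the sources used here. Positions and symbols came from the Ensembl BDGP6.54 annotation (41 genes had no match), and without a known strand setting, reads of overlapping genes cannot be told apart. No genome sequence was given, and promoter sequences and motifs were not analysed here.

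The test was two-sided: limma 3.58.1 (R 4.3.3) was run with its trend option on log2(signal + 1) with 1 mean per pool. It covered the 10453 genes that reached a signal of 10 or more in 2 or more libraries. P-values were adjusted by Benjamini-Hochberg over all of them, with a threshold of 0.05. With 6 residual degrees of freedom, the spread of a pool holds differences between its times as well as between replicates. A fold change on this scale understates the change of genes with low signal. The steps between times used 1 mean per time over all 10 libraries. Marker shares were recovered reads of a list over all reads, tested by an exact permutation test. Alternatives were other pseudocounts, filters and scalings, edgeR 4.0.16 and DESeq2 1.42.0 on the recovered reads, a replicate block, and leaving out libraries or times. The fit was tested on simulated data.

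The members, the 55 gene lists and the tests were chosen with earlier results of these data known, so lists are described by counts and medians without a test. After values were seen, 5 genes that did not belong were taken out of 2 lists: with them, 7 of 11 zona pellucida genes were higher and 1 lower, and 2 of 21 JNK genes higher and 7 lower. Genes were named by rules: the 8 largest moderated statistics and the 5 largest differences in each direction among well-expressed genes without overlap, the 5 largest whose means moved little within pools, 4 farthest outside the pools at 25 h, and in each list up to 4 members that passed and 2 that did not. Other genes named with their list were chosen for their role after their values were seen.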

Additional observations from a re-analysis of the deposited data

Results flagged for a closer look

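Within a pool, 25 of the 546 combinations of a named gene and a pool (4.58%) held a library far from the other 3 by Dixon's criterion, which chance alone would flag in about 1 in 20. The library was 15 h B in 14 of them and 15 h A in 4. In 15 h B the signal was above the other early libraries for Egfr (11168), Ets21C (227), Klp10A (6108), N (30230.0), Tgi (1251), Utx (1506), ci (14497), dap (3069.7), fz (4522), hh (931), pim (1009), vari (5436) and vg (2490.3). It was below them for Buffy (52.7).

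In 15 h A it was above the other early libraries for Rpt4 (5601) and Su(z)2 (885) and below them for CycE (1643) and wg (1157). In 48 h B it was above the other late libraries for RpL10 (53259.5) and fz (6279) and below them for exp (157). In 48 h A peb (596) was above the other late libraries, in 35 h A Ets21C (16.1) was below them, and in 35 h B Osi19 (1.29, 1 read) was the only late library above 0. In 6 h B Sgs7 (1.33, 1 read) was the only early library above 0.

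At 25 h, outside both pools, the 12 fat body markers took 16.5% of the reads in 25 h A and 8.92% in 25 h B, against 0.214% to 0.640% in late and 0.624% to 2.47% in early libraries.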

How the results depend on the processing

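The counts of 2038 higher and 2822 lower genes moved by over 1.5 times under quantile normalization (3990 higher, 1875 lower) and a common median (3625 higher). They did so too when both libraries of a time were left out, which leaves fewer samples: 528 and 771 without 6 h, 809 and 1539 without 35 h, 314 and 665 without 48 h. Without single replicates the counts ranged from 1256 to 2700 higher and from 2084 to 3389 lower. The libraries whose absence moved the higher count by over 1.5 times were 6 h A (1355 without it), 6 h B (1327) and 48 h B (1256). Under the remaining alternatives it ranged from 1796 to 3021, and the lower count, common median included, from 2059 to 3872. edgeR called 2101 higher and 2863 lower, and DESeq2 2309 and 3217. With a replicate block the counts were 1796 and 2710. Letters A and B showed no strong shared effect across times, with correlations of A minus B between times of -0.0327 to 0.161. Whether the letters mark pairs of libraries is not labelled, and these correlations cannot decide it.

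Of 266 named genes past the threshold, 24 lost the call under quantile normalization, 3 others reversed, and 24 lost it with a common median. Without a time, 104 (6 h), 4 (15 h), 63 (35 h) and 134 (48 h) lost it, without 1 replicate 1 to 20, and under edgeR 6. Differences that reversed, called or not, were ND-51L1 (1.24), RpL10 (0.21), RpLP1 (0.13), alphaTub84B (0.22) and betaTub56D (0.48) under quantile normalization, Atpalpha (0.26) and lqf (0.26) without both 15 h libraries, and lqf without 15 h A (0.22; -0.16 to 0.22 over single replicates left out). The cause was not tested. Of 48 list counts of at least 5, those that moved by over 1.5 times numbered 14 under quantile normalization, 16 with a common median, 4 by edgeR, 43, 5, 26 and 43 without 6 h, 15 h, 35 h and 48 h, and 3 to 14 without single replicates. Of 303 members of the 15 lists with no lower call, 0 were lower at an unadjusted p under 0.05, by edgeR or by DESeq2. Of 392 members of the 14 lists with no higher call, 2 were higher at an unadjusted p under 0.05, 1 by edgeR and 0 by DESeq2. Intervals and floors from reads cover counting error only; genes near 1 read (0.596 to 1.40) carry no fold.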

Other observations

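At 25 h, 4 genes named for lying farthest above all 8 pooled libraries were Gnmt, Reg-2, Miox and Jig, and no gene that met the naming rule lay below all 8. Gnmt, a glycine N-methyltransferase gene, had 28299.7 and 10283 in 25 h A and 25 h B, against 671, 885, 74.2 and 161 in late discs and 2449.8, 3777, 1435 and 3012 in early discs. Miox, the myo-inositol oxygenase gene, had 15135 and 5449 at 25 h, against 589, 559.8, 198 and 198 in late discs and 1461, 3432, 1045 and 2690.2 in early discs. In both the 25 h A library was the highest of all. The storage protein gene Lsp1beta had 1661700.0 and 660332 at 25 h, against 47457, 54489, 14174 and 28451 in late discs and 48450.4, 106219, 42167 and 168812 in early discs. Its pooled difference did not pass by limma (-1.28, SE 0.56, adjusted p = 0.0889), and neither did that of Lsp2 (2.44, SE 1.32, adjusted p = 0.154), another storage protein gene, with 133508 and 47392 at 25 h.

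Other families changed in both directions. Of 12 Osiris genes, a family of cuticle-forming cells, 8 were lower (5 under quantile normalization) and 2 higher, with Osi2 having 64.4, 82.6, 123 and 283 in late discs and 4.28, 14.7, 24.4 and 11.8 in early discs (3.20, SE 0.61, adjusted p = 0.00517). Of 20 serpins, inhibitors of proteases, 7 were lower and 5 higher, with 8 higher under quantile normalization and 3 without 15 h A. The count under quantile normalization is near the share over all genes there (38.2%). Of 15 genes of glypicans and heparan sulfate synthesis 7 were higher and 2 lower, with the glypican gene dlp at 0.70, SE 0.12, adjusted p = 0.00351 and the syndecan gene Sdc at 0.96, SE 0.12, adjusted p = 0.00158.

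Genes that were higher in late discs had longer spans than those that were lower. The median gene span was 4091 bp for the 2038 higher genes, 2303 bp for the 2822 lower genes and 2569 bp for all genes tested, and the median exonic length was 2757 bp, 1732.5 bp and 1981 bp. This is a description across genes, which are not independent replicates. Runs of at least 6 adjacent tested genes that were all called and at least 2-fold in the same direction numbered 26, and in all of them the genes were lower. Over all genes tested, 21% were called and at least 2-fold lower, against 5.05% higher. The direction of the runs is therefore no result about position. The longest held 16 genes on chromosome 3R (25275790 to 25313833, from CG10513 to CG31087), with a median difference of -4.27, and a run of 10 on chromosome 3L (1201871 to 1242025) held the lysozyme genes LysB, LysC, LysD, LysE and LysS. Genes in such runs include close copies, between which reads may be split.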
